A study of Mus musculus with 20 samples.

Results

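TRAV6 is a family of V genes of the T cell receptor α chain (TCRα). The clones described here were the in-frame TCRα clones, without a stop codon, whose first listed V gene was a TRAV6, TRAV6D or TRAV6N gene, and the dual-use gene TRAV6-7-DV9 was kept apart because its name also marks a δ chain V gene. The family was chosen by its share of clonotypes in these libraries. There were 9461 such clones among 212832 in-frame TCRα clones of 17 mice. The study compared CD8 T cells of 4 genotypes. All were on the C57BL/6 background. β5i-KO mice lacked β5i, a catalytic subunit of the immunoproteasome. β5t-KO mice lacked β5t, a catalytic subunit of the thymoproteasome of cortical thymic epithelium. BIT mice carried the β5t coding sequence (Psmb11) in place of that of β5i (Psmb8), so that cells which normally make immunoproteasomes make thymoproteasomes. The BIT results of the study came mostly from 1 mouse line, and the labels do not say which line gave these libraries. For each library, RNA was prepared from 1000000 sorted CD8 T cells of a male mouse of 9 to 12 weeks. The labels give lymph nodes as the tissue, and the protocol names lymph nodes and spleens. The mice were 4 WT, 5 β5i-KO, 4 β5t-KO and 4 BIT, numbered as in the labels, and the 3 comparisons with WT share the WT mice.

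A TCRα chain is made in the thymus by joining 1 V gene to 1 J gene, with bases trimmed and added at the junction. The junction encodes CDR3α, the loop that lies over the peptide presented by an MHC molecule, and the V gene encodes the CDR1 and CDR2 loops, which lie mostly over the MHC molecule. The locus can rearrange several times on 1 chromosome, each time using a V gene farther upstream and a J gene farther downstream, and J genes are numbered so that those with high numbers lie nearest the V genes. Most mouse Trav families, TRAV6 among them, lie in repeated blocks, so a gene has near-identical copies marked D and N. Thymocytes whose receptors bind self-peptides on MHC class I well enough survive as CD8 T cells, and the thymoproteasome shapes the peptides that cortical epithelium presents.

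The germline ends of the TRAV6 genes are shown because they set the first residues of CDR3α and because copies with the same end cannot be told apart there. They are the last 14 bases of each gene in the GENCODE annotation of GRCm39, where the genes lie on the plus strand of chromosome 14 between chr14:52875972-52876419 (TRAV6-1) and chr14:53754386-53754823 (TRAV6-6). The deposited tables hold no coordinates, and mm10 is the build named in the submitters' processing notes. Lower case marks the codon of the conserved cysteine that opens CDR3, and capitals mark the bases after it.
TRAV6-6, TRAV6D-6, TRAV6D-7, TRAV6N-5 and TRAV6N-7: tgtGCTCTGGGTGA
TRAV6-1, TRAV6-2 and TRAV6D-5: tgtGTTCTGGGTGA
TRAV6-4 and TRAV6D-4: tgtGCTCTGGTTGA
TRAV6-5: tgtGCTCTGAGTGA
TRAV6N-6: tgcGCTCTGAGTGA
TRAV6-3: tgtGCTATGAGAGA
TRAV6D-3: tgtGCTATGAGTGA
The first 6 bases of the germline end opened 89.3% of the clones assigned to TRAV6-6 and 92.3% to 100% of those assigned to each other TRAV6 gene. The commonest first 4 residues of the TRAV6 clonotypes were CALG, in 48.0% ± 1.55 (SD, n = 4) of those of WT mice, against 1.89% of the clonotypes of other genes. CALG opened 47.8% ± 2.05 of them in β5i-KO mice, 54.1% ± 7.25 in mice without β5t and 50.1% ± 2.65 in BIT mice (SD). Starts with CALS and CVLG followed, with 13.4% ± 1.98 and 11.8% ± 3.37 of the TRAV6 clonotypes of WT mice.

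A clonotype was a distinct combination of V gene, J gene and CDR3α residues in a mouse, counted once whatever its abundance, which left 9109 TRAV6 clonotypes among 197526. The libraries held 1983032 to 8480570 TCRα reads, 14772 to 602397 unique molecules and 622 to 26272 in-frame clonotypes, with the fewest molecules in β5i-KO mouse 4 and the fewest clonotypes in β5t-KO mouse 2. The number of TRAV6 clonotypes ranged from 28 in β5t-KO mouse 2 to 1343 in BIT mouse 1, so values from β5t-KO mouse 2 carry a wide counting error. The joins typical of invariant NKT cells (TRAV11 with TRAJ18) and of MAIT cells (TRAV1 with TRAJ33) made up at most 0.0346% and 0.161% of the clonotypes of any library. A clonotype is counted once however many cells carry it, so these shares do not measure the number of such cells. TCR libraries hold no CD8 transcript, so the purity of the sort could not be checked here. Each library is labelled as a separate mouse. More than 1 V gene was listed for 53.3% of the TRAV6 clones and for 34.3% of other in-frame clones, and 4 TRAV6 clones also listed a gene of another family. Just inside the rule, 369 TRAV6 clones also listed TRAV6-7-DV9, and just outside it 1005 clones with TRAV6-7-DV9 listed first also named a TRAV6 gene.

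TRAV6 genes made up a larger part of the clonotypes in β5t-KO and BIT mice than in WT mice. The share was 2.85%, 3.35%, 3.90% and 4.24% in WT mice 1 to 4. It was 5.07%, 4.50%, 4.52% and 6.44% in β5t-KO mice 1 to 4. In BIT mice 1, 2, 4 and 5 it was 5.11%, 4.67%, 4.76% and 4.80%. All 4 β5t-KO and all 4 BIT mice thus lay above every WT mouse. In β5i-KO mice 1 to 5 the share was 4.77%, 3.42%, 4.82%, 5.39% and 3.37%, and 3 of these 5 mice lay above every WT mouse. The mean was 3.59% ± 0.610 in the 4 WT mice and 4.35% ± 0.909 in the 5 β5i-KO mice. It was 5.13% ± 0.911 in the 4 β5t-KO mice and 4.84% ± 0.192 in the 4 BIT mice (SD). TRAV6 was chosen with these shares known, so they are given as a description with no test. Of the 19 V families with a mean share of at least 0.5%, 10.5% lay above every WT mouse in all β5t-KO mice, and also 10.5% did so in all BIT mice, while 0% did so in all β5i-KO mice. BIT and β5t-KO mice overlapped in the TRAV6 share, and 26.3% of the families did not overlap between them.

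Library size differed along with genotype. The WT mouse with the fewest clonotypes, 2454, had the lowest TRAV6 share, with a 95% Wilson interval of 2.26% to 3.59% that covers counting error only, and the WT mouse with the most, 16876, had the highest. The interval was 3.13% to 6.43% in β5t-KO mouse 2 and 5.36% to 7.73% in β5t-KO mouse 4, the libraries with 622 and 1661 clonotypes. When every library was thinned to the 13519 in-frame molecules of the shallowest one, the share was 2.67% to 3.35% in WT, 3.04% to 5.39% in β5i-KO, 4.08% to 5.96% in β5t-KO and 3.82% to 4.26% in BIT mice, and all β5t-KO and BIT mice still lay above every WT mouse. Among clones that listed a single V gene, the means were 2.71% in WT, 3.02% in β5t-KO and 3.42% in BIT mice. Above every WT mouse lay 2 of 4 β5t-KO and 3 of 4 BIT mice, and the same numbers did so among clonotypes of at least 2 molecules, with means of 3.68% in WT, 4.90% in β5t-KO and 4.61% in BIT mice.

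**Figure D1:**
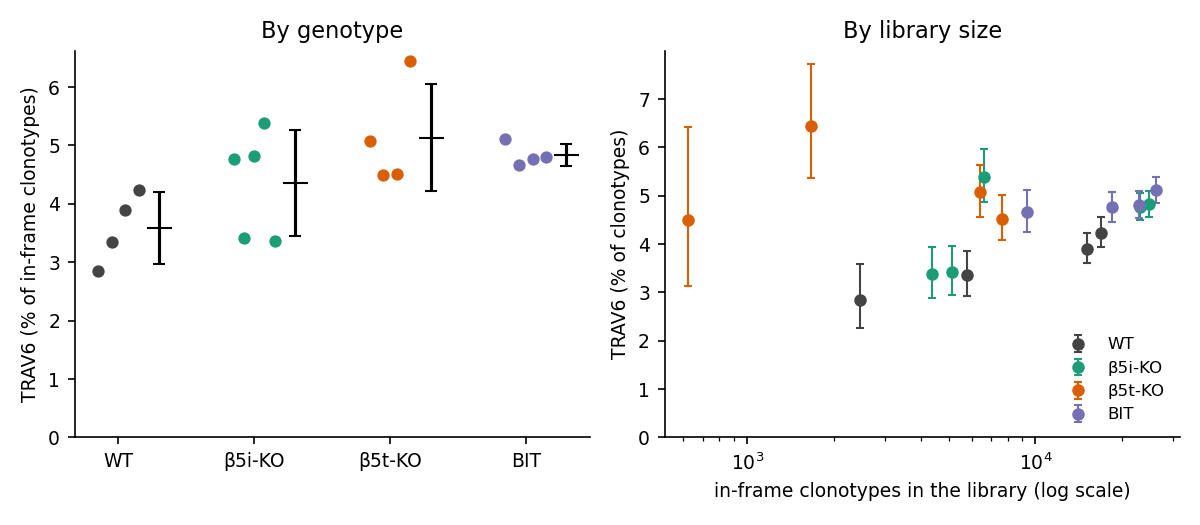
Share of TRAV6 among in-frame TCRα clonotypes, in percent, by genotype (left: 1 point per mouse, dash and bar for mean and SD) and against the number of clonotypes in the library on a log axis (right: bars are 95% Wilson intervals). The 4 BIT mice lie between 4.67% and 5.11% and the 4 β5t-KO mice between 4.50% and 6.44%, above the 4 WT mice, which reach 4.24%.

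TRAV6 clonotypes had fewer molecules than others in every library. In molecules, TRAV6 made up 2.59% to 2.98% in WT, 2.63% to 4.62% in β5i-KO, 3.07% to 4.24% in β5t-KO and 3.32% to 3.69% in BIT mice, and this share was below the share of clonotypes in 17 of 17 mice. The number of molecules per TRAV6 clonotype was 0.643 to 0.916 of that per other clonotype. Its mean was 0.766 ± 0.106 for WT and 0.755 ± 0.0679 for β5i-KO mice. For β5t-KO and BIT mice it was 0.678 ± 0.0291 and 0.726 ± 0.0550 (SD), and the groups overlapped. Fewer cells per clonotype and less TCRα RNA per cell cannot be told apart in bulk RNA. Each TRAV6 molecule was read more often, with 11.4 to 94.0 reads per molecule in WT mice against 8.54 to 66.5 for other genes, and the same order held in 17 of 17 mice. In reads, the TRAV6 share exceeded its share of clonotypes in 5 of 17 mice. The part of this difference in reading in the shares above was not tested.

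Clones out of frame or with a stop codon encode no TCRα chain, so their V genes were not selected through the chain they would encode. TRAV6 had a larger share among them than among in-frame clonotypes in 17 of 17 mice. It was 4.35%, 6.54%, 7.13% and 6.93% in WT mice 1 to 4 and 7.58%, 8.33%, 6.62% and 7.39% in BIT mice 1, 2, 4 and 5. In β5t-KO mice 1 to 4 it was 5.14%, 7.81%, 8.96% and 7.91%, and in β5i-KO mice it ranged from 5.23% to 9.34%. The groups overlapped. The mean difference from WT mice was 1.08 percentage points in β5i-KO (exact permutation test, two-sided, p = 0.302), 1.22 in β5t-KO (exact permutation p = 0.286) and 1.24 for BIT mice (exact permutation p = 0.114), and each had an adjusted exact permutation p = 0.629. The in-frame shares differed from WT mice by 0.767, 1.55 and 1.25 percentage points in the same order. Any relation between the in-frame and out-of-frame differences was not tested. The out-of-frame shares had the larger replicate spread, 0.703 to 1.63 (SD) within a group. The counts behind them were small, from 5 TRAV6 clones of 64 in β5t-KO mouse 2 to 291 of 3117 in β5i-KO mouse 3.

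**Figure D2:**
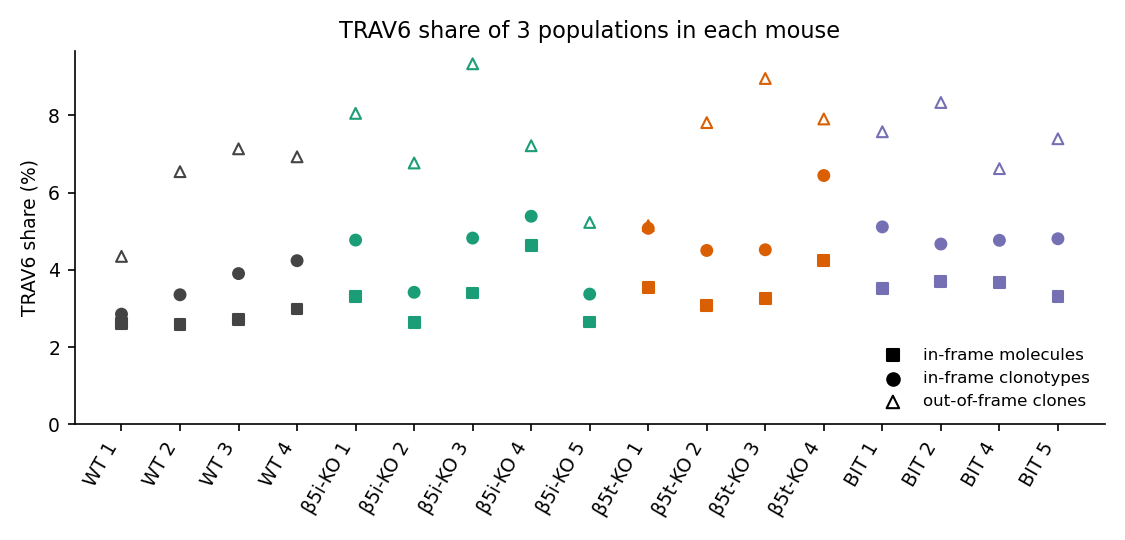
TRAV6 share, in percent, of in-frame molecules (squares), in-frame clonotypes (filled circles) and out-of-frame or stop-containing clones (open triangles) in each of the 17 mice, coloured by genotype. In every mouse the order is molecules, then clonotypes, then out-of-frame clones, with the last pair close in β5t-KO mouse 1, at 5.07% and 5.14%.

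TRAV6-6 was the most used member. It held 3736 clonotypes, 41% of those of the family, and 97.7% of its clones listed several V genes. Its copies by name, TRAV6D-6 and TRAV6N-6, were listed first in 3 and 1027 clonotypes, and the 3 copies together made up 52.3% of the family. TRAV6D-7 followed with 1579 clonotypes, 17.3% of the family. TRAV6-5, TRAV6-1 and TRAV6-3 held 590, 543 and 403, and TRAV6-2, TRAV6N-5, TRAV6D-3, TRAV6-4, TRAV6D-4 and TRAV6D-5 between 118 and 293 each. TRAV6D-6 and TRAV6N-7, with 3 and 13 clonotypes, were too rare to test. The other 12 members reached at least 5 clonotypes in at least 4 libraries.

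Counted by the first listed gene, most of the higher share of the family lay in TRAV6-6. TRAV6-6 made up 1.28% ± 0.401 (SD, n = 4) of the clonotypes of WT mice, with a range of 0.733% to 1.59%. Its share was 1.68% ± 0.503 (SD, n = 5) for β5i-KO mice, from 1.09% to 2.05%, and overlapped with WT mice. In β5t-KO mice it made up 2.34% ± 0.657 (SD, n = 4), from 1.68% to 3.25%, and in BIT mice 2.04% ± 0.0773 (SD, n = 4), from 1.96% to 2.14%, both above every WT mouse. The share of all V genes that separated in this way was not counted. TRAV6-6 is also a large part of the share by which the family was chosen, so its separation is only a description. TRAV6D-7, by contrast, had group means of 0.764% ± 0.0382 (WT) to 0.836% ± 0.180 (β5t-KO, SD), and the groups overlapped. TRAV6N-6 had 0.339% ± 0.178 in WT mice and between 0.502% ± 0.202 (β5i-KO) and 0.530% ± 0.330 (β5t-KO, SD) elsewhere, again with overlap.

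**Figure D3:**
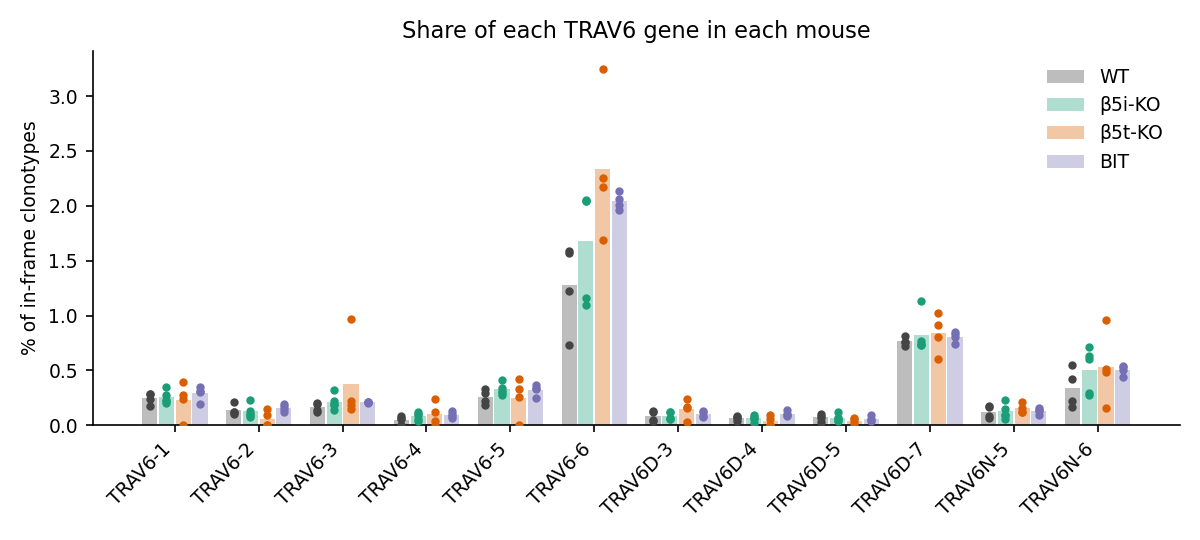
Share of each of the 12 tested TRAV6 genes among in-frame clonotypes, in percent, with 1 point per mouse and a shaded bar up to the group mean. TRAV6-6 stands above the other genes in the mean of each genotype, and its points for β5t-KO and BIT mice lie above those of WT mice. The share of all V genes that separated in this way was not counted.

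No single TRAV6 gene passed the test across V genes. The number of clonotypes per V gene was compared with edgeR's quasi-likelihood test over 93 V genes, with Benjamini-Hochberg adjustment and a threshold of 0.05. These counts are the share by which the family was chosen, split by gene. The signs, medians and tests of TRAV6 genes are therefore not independent of that choice. In β5i-KO against WT mice 0 of 12 TRAV6 genes were called, against 1.08% of all V genes, and 10 of 12 had a positive log2 fold change (all V genes 59 of 93). The median log2 fold change of the 12 was 0.16, and that of all V genes 0.09. In β5t-KO against WT mice 0 of 12 were called (all V genes 5.38%), and their median log2 fold change was 0.25 (all V genes 0.14). In BIT against WT mice 0 of 12 were called (all V genes 2.15%), 11 of 12 had a positive log2 fold change (all V genes 65 of 93), and the median was 0.29 (all V genes 0.13). In BIT against β5t-KO mice 0 of 12 were called (all V genes 7.53%), with a median of -0.05 (all V genes 0.04). Without adjustment, at p under 0.05, edgeR gave 1 TRAV6 gene in β5t-KO against WT (all V genes 20.4%), 1 in BIT against WT (all V genes 19.4%), 0 in β5i-KO against WT (all V genes 12.9%) and 0 in BIT against β5t-KO mice (all V genes 20.4%). DESeq2 called 1 TRAV6 gene in β5t-KO against WT mice (all V genes 5.38%), 0 in β5i-KO against WT (all V genes 0%), 0 in BIT against WT (all V genes 1.08%) and 0 in BIT against β5t-KO mice (all V genes 5.38%).

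That gene was TRAV6-6, whose counts are part of the share by which the family was chosen. Its log2 fold change was 0.65 ± 0.21 (SE) in β5t-KO against WT mice, with an edgeR adjusted p of 0.0562, and 0.56 ± 0.18 (SE) in BIT against WT mice, with an edgeR adjusted p of 0.0615. In β5i-KO against WT it was 0.34 ± 0.17 (SE, edgeR adjusted p 0.350), and in BIT against β5t-KO mice -0.09 ± 0.19 (SE, edgeR adjusted p 0.837). The β5t-KO difference passed the threshold with DESeq2 (adjusted p 0.0356), with edgeR on thinned libraries (adjusted p 0.00878) with edgeR under TMM normalisation (adjusted p 0.0469) and with edgeR on those groups alone (adjusted p 0.0201). It also passed when β5i-KO mouse 1, 2, 3 or 5 or β5t-KO mouse 3 was left out (edgeR adjusted p 0.0258 to 0.0480). The BIT difference passed with edgeR on those groups alone (adjusted p 0.00932) and without β5i-KO mouse 2 (edgeR adjusted p 0.0299), and not with DESeq2 (adjusted p 0.356). With the D and N copies joined to TRAV6-6, neither difference passed (edgeR adjusted p 0.0917 for β5t-KO and 0.144 for BIT). Among clones that listed a single V gene, which leaves out 97.7% of the TRAV6-6 clones, the BIT difference turned to a log2 fold change of -0.31 (edgeR adjusted p 0.827) while the family share was still 0.713 percentage points above that of WT mice, and the β5t-KO difference had an edgeR adjusted p of 0.580.

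TRAV6 clonotypes used J genes farther downstream than other TRAV clonotypes. Their mean TRAJ number was 25.0 ± 1.32 (SD, n = 4) in WT mice against 28.0 ± 0.709 for other TRAV genes, and TRAV6 was the lower in 17 of 17 mice. J genes from TRAJ41 to TRAJ61, which lie nearest the V genes, were used by 11.4% ± 2.97 of the TRAV6 clonotypes of WT mice and by 21.3% ± 1.42 of the others. In β5i-KO mice this share was 14.2% ± 1.68 against 22.5% ± 0.552. In BIT mice it was 15.1% ± 0.511 against 23.1% ± 0.973, and in β5t-KO mice 13.5% ± 4.28 against 26.4% ± 2.17 (all SD). The most used J genes with TRAV6 in WT mice were TRAJ22, TRAJ23 and TRAJ30, in 6.21% ± 2.38, 6.16% ± 1.63 and 5.53% ± 1.24 of TRAV6 clonotypes (SD, n = 4). Over the genotypes, TRAJ22 lay between 6.21% and 7.78%, TRAJ23 between 5.79% and 7.33%, and TRAJ30 between 5.53% and 8.30%.

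Among members, the mean TRAJ number was highest for the TRAV6 genes nearest the J genes, TRAV6-6 and TRAV6-5, and did not follow position among the rest. It was 29.0 ± 1.42 for TRAV6-6 (SD, n = 17 mice) and 28.0 ± 1.69 for TRAV6-5 (n = 14, chr14:53728572-53729079), the members closest to the J genes in the annotation. For TRAV6-3 (chr14:53666168-53667834) and TRAV6-4 (chr14:53691753-53692241), slightly upstream of them, it was 24.9 ± 2.28 and 25.1 ± 3.11. It was 21.6 ± 1.91 for TRAV6N-6 (n = 15, chr14:53370136-53370594), 23.5 ± 1.69 for TRAV6D-7 (n = 16, chr14:53245069-53245555) and 24.5 ± 1.94 for TRAV6-1 (n = 13), the member farthest from the J genes. TRAV6-2, TRAV6D-3, TRAV6D-4, TRAV6D-5 and TRAV6N-5, also upstream of TRAV6-3, had 24.9, 23.0, 25.6, 25.7 and 24.1. TRAV6-7-DV9, outside the family as counted here, lies nearer the J genes than any member (chr14:53947359-53947876) and had 33.4 ± 1.92 (n = 17). These means cover mice with at least 10 clonotypes of the gene. Several V genes were listed for 97.7% of TRAV6-6 clones and 0% of TRAV6N-6 clones.

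No difference in mean TRAJ number between genotypes passed after adjustment. In WT mice 1 to 4 it was 23.1, 25.9, 25.9 and 25.1 for TRAV6, and in β5i-KO mice 1 to 5 it was 26.1, 26.7, 26.1, 26.2 and 26.5, above every WT mouse. The difference of 1.30 had an exact permutation p = 0.0159, the smallest that 5 mice against 4 allow, which gave an adjusted p of 0.381 over 24 exact permutation tests of 6 properties in 4 comparisons. With so few mice, 1 comparison alone could not pass this adjustment. Without WT mouse 1, which had 70 TRAV6 clonotypes, the difference was 0.670. In β5t-KO mice the mean was 25.8 ± 1.32 and in BIT mice 26.0 ± 1.07 (SD, n = 4), and both overlapped with WT mice. Other TRAV clonotypes were at 30.0 ± 0.523 in β5t-KO mice, so that TRAV6 lay 4.20 ± 1.74 below them, against 2.96 ± 1.49 in WT and 2.45 ± 0.328 in BIT mice. This gap did not pass the test between β5t-KO and WT mice (exact permutation p = 0.343, adjusted p = 0.549) or between BIT and β5t-KO mice (exact permutation p = 0.0571, adjusted p = 0.183 over 16 tests).

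CDR3α of TRAV6 clonotypes was longer than that of other TRAV clonotypes in 15 of 17 mice, and both exceptions were β5t-KO mice. For TRAV6 the mean length was 13.83 ± 0.0255 residues in WT, 13.71 ± 0.129 in β5t-KO and 13.83 ± 0.0596 in BIT mice. For other TRAV clonotypes it was 13.55 ± 0.0373 in WT, 13.78 ± 0.0682 in β5t-KO and 13.59 ± 0.0246 in BIT mice (all SD). In β5i-KO mice it was 13.85 ± 0.103 against 13.57 ± 0.0604. TRAV6 thus exceeded the others by 0.295, 0.363, 0.258 and 0.219 residues in WT mice 1 to 4. In β5t-KO mice 1 to 4 the differences were 0.133, -0.255, 0.0526 and -0.214 residues, all below every WT mouse. In BIT mice 1, 2, 4 and 5 they were 0.233, 0.238, 0.164 and 0.304 residues, all above every β5t-KO mouse. The β5t-KO minus WT difference was -0.354 residues and the BIT minus β5t-KO difference 0.305 residues, each with an exact permutation p = 0.0286, the smallest that 4 mice against 4 allow, and an adjusted p = 0.152 over the 16 exact permutation tests of TRAV6 against other TRAV genes. The values of β5t-KO mice 2 and 4 rest on 28 and 107 TRAV6 clonotypes. With each mouse left out in turn, the differences were -0.422 to -0.293 and 0.244 to 0.373 residues.

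**Figure D4:**
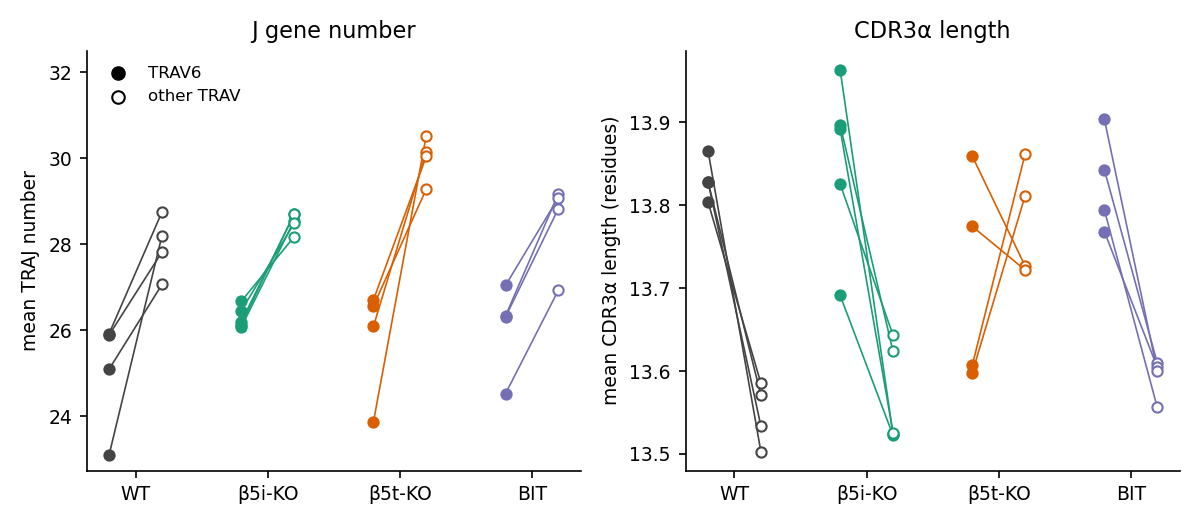
Mean TRAJ number (left) and mean CDR3α length in residues (right) of TRAV6 clonotypes (filled) and other TRAV clonotypes (open), with a line joining the values of each mouse and axes that do not start at 0. TRAV6 lies below the others in TRAJ number in 17 of 17 mice, and in length it lies above them in 15 mice and below them in 2 β5t-KO mice.

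The CDR3α of TRAV6 carried less positive charge than that of other TRAV clonotypes in 17 of 17 mice. The net charge, counted as lysine and arginine minus aspartate and glutamate, averaged 0.247 ± 0.0712 per CDR3α for TRAV6 and 0.487 ± 0.0217 for others in WT mice. It was 0.284 ± 0.0550 against 0.430 ± 0.00495 in β5t-KO mice and 0.283 ± 0.0285 against 0.483 ± 0.0280 in BIT mice (SD). Members differed, from 0.0809 ± 0.172 for TRAV6-1 to 0.943 ± 0.204 for TRAV6-3 (SD over 13 and 12 mice), whose germline end differs from that of TRAV6D-3, at 0.119 ± 0.149, in the bases shown above. The deposited alignments ran past the annotated end of the V gene in 2552 and of the J gene in 1222 of the 9461 TRAV6 clones. Between the V and J ends as these alignments placed them lay a mean of 2.11 ± 0.145 nucleotides in TRAV6 clonotypes of WT mice and 2.34 ± 0.141 in those of β5i-KO mice. The mean was 2.19 ± 0.288 for β5t-KO and 2.28 ± 0.0319 for BIT mice (SD). The difference of 0.229 between β5i-KO and WT mice had an exact permutation p = 0.0476 and an adjusted p = 0.457. Relative to other TRAV clonotypes, the number in TRAV6 differed by -0.188 ± 0.0596 in WT and -0.00109 ± 0.155 in β5i-KO mice (SD, exact permutation p = 0.0159, adjusted p = 0.152). Over all properties, 2 of the 24 tests of TRAV6 and 3 of the 16 tests of TRAV6 against other TRAV genes had an exact permutation p under 0.05, and 0 passed after adjustment, where the smallest adjusted p was 0.152.

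Pairs of V family and J gene were tested to see whether TRAV6 joined particular J genes in 1 genotype more than in another. Of 679 pairs with enough clonotypes, 42 were TRAV6 pairs. In BIT against WT mice edgeR called 1 TRAV6 pair higher and 0 lower (all pairs 0.147%), and it was the pair of TRAV6 with TRAJ52. None was called in β5i-KO against WT (all pairs 0%), in β5t-KO against WT (all pairs 0.884%) or in BIT against β5t-KO mice (all pairs 1.62%), and without adjustment 6, 7 and 1 TRAV6 pairs had an edgeR p under 0.05 (all pairs 8.25%, 12.2% and 13.1%). DESeq2 called 0 TRAV6 pairs in each of the 4 comparisons (all pairs 0.589% in β5t-KO against WT and 0.147% in BIT against β5t-KO mice). The median log2 fold change of the 42 pairs against WT mice was 0.19 (β5i-KO), 0.46 (β5t-KO) and 0.30 (BIT), where that of all 679 pairs was 0.05, 0.00 and 0.07. The pairs split up the share by which the family was chosen, so these medians are not independent of that choice.

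TRAJ52 was rare among the TRAV6 clonotypes of WT mice. There were 0, 1, 4 and 2 such clonotypes in WT mice 1 to 4 and 19, 6, 14 and 19 in BIT mice 1, 2, 4 and 5. As a share of TRAV6 clonotypes, TRAJ52 made up 0% to 0.679% in WT and 1.37% to 1.73% in BIT mice, and the groups did not overlap. The 0 of 70 TRAV6 clonotypes of WT mouse 1 allows a share of up to 4.29%. WT and BIT mice also did not overlap for TRAJ40 (WT up to 1.96%, BIT from 2.16%) and TRAJ43 (WT up to 1.43%, BIT from 1.45%). The share of all J genes without overlap was not counted, so this separation is not particular to TRAJ52. For TRAV6 with TRAJ52, the log2 fold change of the share of all clonotypes was 2.05 ± 0.51 (SE, edgeR adjusted p 0.0457). β5i-KO mice 1 to 5 held 17, 1, 9, 4 and 4 such clonotypes, and β5t-KO mice 1 to 4 held 5, 0, 4 and 1. Their log2 fold changes against WT were 1.60 ± 0.56 (SE, edgeR adjusted p 0.326) and 1.75 ± 0.73 (SE, edgeR adjusted p 0.220). BIT differed from β5t-KO mice by 0.30 ± 0.52 (SE, edgeR adjusted p 0.832). The pair reached 5 clonotypes in 7 libraries, 4 of them BIT, so it entered the test only through the group in which it was high.

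Among other clonotypes, TRAJ52 had a share of 1.20% ± 0.153 in WT and 1.36% ± 0.164 in BIT mice, where its share in TRAV6 was 0.369% ± 0.295 and 1.53% ± 0.164. In β5t-KO mice it was 2.59% ± 0.758 among others and 0.905% ± 0.651 in TRAV6, and in β5i-KO mice 1.18% ± 0.135 and 1.34% ± 0.849 (SD). TRAV6 thus lay below the others in 4 of 4 WT and 4 of 4 β5t-KO mice, in 3 of 5 β5i-KO mice and in 1 of 4 BIT mice. The 0 of 28 TRAV6 clonotypes of β5t-KO mouse 2 allows a share of up to 10.7%, and the 0 of 70 of WT mouse 1 up to 4.29%. These 2 mice therefore say little on the order. The comparison of TRAV6 with others was made after the counts were seen and was not tested. Of the 58 clonotypes in BIT mice, 45 carried TRAV6-6 or a copy of it, and they had 54 distinct CDR3α sequences. Over all mice 15 of 90 distinct sequences occurred in 2 or more mice. The call was lost with DESeq2 (adjusted p 0.669) and in edgeR with TMM normalisation (adjusted p 0.0643), with no filter on low counts (adjusted p 0.0845) and without WT mouse 1, 2 or 4, BIT mouse 1 or 5, β5i-KO mouse 1 or 4 or β5t-KO mouse 2 (edgeR adjusted p 0.0506 to 0.132). With each of the 17 mice left out in turn the log2 fold change lay between 1.76 and 2.55. With the number of TRAV6 clonotypes in place of all clonotypes as library size, the log2 fold change was 1.74 (edgeR adjusted p 0.0149 over the 42 TRAV6 pairs). This fit kept the filter that the pair passed only through BIT mice and adjusted over fewer pairs, so it is no independent support.

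The TRAJ52 germline sequence (plus strand, chr14:54402773-54402838 in GRCm39) and the TRAV6 join with TRAJ52 that was found in most BIT mice are shown because edgeR called no other TRAV6 feature, with the limits just given. Capitals mark the codons of the phenylalanine that closes CDR3α and of its FGXG motif in the first line, and in the second line the bases in neither germline end.
TRAJ52: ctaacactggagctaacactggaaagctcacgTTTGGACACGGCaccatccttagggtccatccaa
TRAV6 with TRAJ52: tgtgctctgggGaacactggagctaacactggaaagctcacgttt
The join was found in 3 of 4 BIT mice, at 35.5, 72.8 and 26.5 CPM (reads per 1000000 in-frame TCRα reads) in BIT mice 1, 2 and 5, and in 0 of the 13 other mice. It had 43 molecules in all, and it encodes 15 residues. The join was picked for its presence in BIT mice, from a pair that passed the filter only through them. Its counts by genotype are therefore no support for a difference between genotypes.

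**Figure D5:**
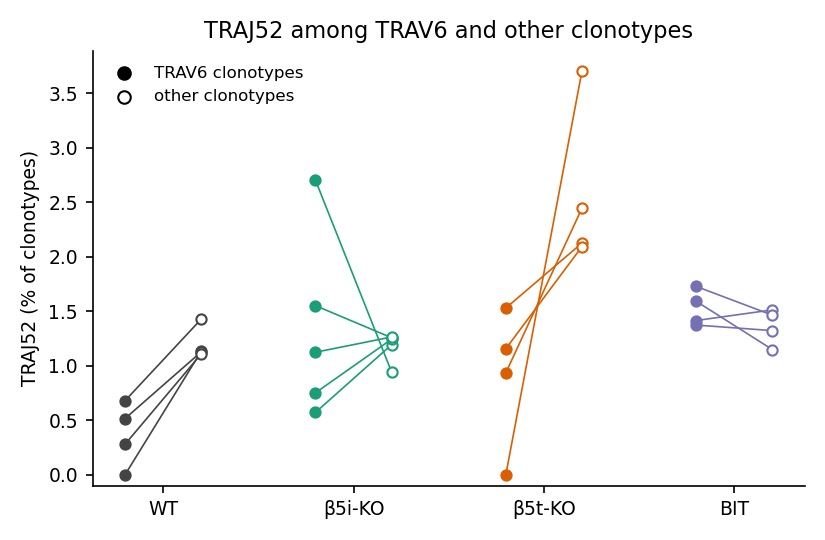
Share of TRAJ52, in percent, among TRAV6 clonotypes (filled) and among all other clonotypes (open) in each mouse, with a line joining the values of a mouse. TRAV6 lies below the others in all WT and β5t-KO mice, and the filled points of BIT mice, 1.37% to 1.73%, lie above those of WT mice, 0% to 0.679%. WT mouse 1 and β5t-KO mouse 2 had few TRAV6 clonotypes and none with TRAJ52.

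Single TRAV6 CDR3α sequences were shared by few mice. There were 6447 distinct sequences, of which 19.6% occurred in at least 2 mice and 2.44% in at least 5, against 29.7% and 8.13% of the sequences of other V genes. The widest was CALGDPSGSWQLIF, a join with TRAJ22 found in 13 of 17 mice, whereas sequences of other V genes reached 17 mice. A sequence was called recurring where it reached 10 CPM in at least 3 mice of a genotype. By this count 10 TRAV6 sequences recurred in WT mice, 52 in β5i-KO, 5 in mice without β5t and 90 in BIT mice, 124 in all. Over all V families 4957 combinations of V family and CDR3α recurred in some genotype. These were not counted by genotype, so the TRAV6 counts cannot be read as particular to TRAV6. The paper also reports more shared CDR3α sequences in β5i-KO and BIT than in WT mice. The threshold is easier to reach in β5i-KO mice, of which there were more. No TRAV6 sequence recurred in all genotypes. BIT mice shared 7 with WT mice, 70.0% of the WT and 7.78% of the BIT sequences. Of the 90 in BIT mice, 50 had no molecule in any β5t-KO mouse, and of the 10 in WT mice 3 had none. The in-frame molecules sequenced numbered 1114315 (WT), 725474 (β5i-KO), 508369 (β5t-KO) and 836143 (BIT), and clonotypes per library also differed, so depth and genotype cannot be told apart in these counts. With all libraries thinned to the same number of molecules, 1 TRAV6 sequence was present in at least 3 WT mice, 15 in at least 3 β5i-KO mice, 3 in at least 3 β5t-KO mice and 16 in at least 3 BIT mice. Clonotypes per thinned library still differed, with 2136 to 7697 in WT and 6263 to 8961 in BIT mice.

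Of the 6 TRAV6 sequences with the highest mean level, 3 held no added base in the form found in most mice. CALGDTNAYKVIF, a join with TRAJ30 that was mostly assigned to TRAV6-6, had the highest mean over all mice, 403 CPM. It was at 0, 0, 175 and 326 CPM in WT mice 1 to 4 and at 714, 661, 306 and 823 CPM in BIT mice 1, 2, 4 and 5. In β5t-KO mice 1 to 4 it was at 1096, 0, 619 and 687 CPM, and in β5i-KO mice 1 to 5 at 523, 303, 614, 0 and 0 CPM. All genotypes overlapped. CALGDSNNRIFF, with TRAJ31, was found in 10 mice, at 114 and 73.5 CPM in WT mice 3 and 4, at 74.2 to 222 CPM in 2 β5i-KO mice, at 158 to 1613 CPM in 3 β5t-KO mice and at 116 to 203 CPM in 3 BIT mice. The 1613 CPM of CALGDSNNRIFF was in β5t-KO mouse 2, the library with 622 clonotypes. The remaining 4 also had their highest level in that mouse. There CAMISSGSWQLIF (TRAV6-3 with TRAJ22) was at 3443 CPM and CAMSEDYSNNRLTL (TRAV6D-3 with TRAJ7) at 3134 CPM, and neither was found in another mouse. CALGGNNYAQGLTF, with TRAJ26, was at 2925 CPM there and at 27.6 to 82.9 CPM in 3 mice elsewhere. A TRAJ22 join of 15 residues was at 2867 CPM there and at 33.5 and 42.9 CPM in BIT mice 5 and 4.

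These joins are shown by the nucleotides found in most mice. Capitals mark bases that are in neither the V nor the J germline end, bases that the deposited alignments placed past an annotated end included, and a sequence without capitals holds none.
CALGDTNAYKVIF: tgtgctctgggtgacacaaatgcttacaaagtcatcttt
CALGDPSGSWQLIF: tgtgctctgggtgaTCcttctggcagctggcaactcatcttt
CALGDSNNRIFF: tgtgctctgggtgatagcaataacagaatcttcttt
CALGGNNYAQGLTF: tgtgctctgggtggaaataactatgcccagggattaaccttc
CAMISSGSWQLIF: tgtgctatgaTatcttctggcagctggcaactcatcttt
CAMSEDYSNNRLTL: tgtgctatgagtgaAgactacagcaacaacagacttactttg
TRAJ22 join of 15 residues: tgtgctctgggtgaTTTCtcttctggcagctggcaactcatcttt
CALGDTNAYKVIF arose from 7 nucleotide sequences over the mice, and the one shown was found in 9 of the 12 mice that held the residues. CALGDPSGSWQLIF arose from 3, and the one shown was found in 12 of its 13 mice.

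No TRAV6 sequence passed the test of abundance, which had little power to call any. On simulated data at the spread of these libraries, edgeR recovered 0 of 66 changes planted at a log2 fold change of 9. That none was called therefore does not show equal abundance. Of 4957 combinations of V family and CDR3α at 10 CPM or more in at least 3 mice of a genotype, 124 were TRAV6, and edgeR's quasi-likelihood test on their reads called 0 of them in each of the 4 comparisons (all sequences 0.0202% in each comparison with WT, and 0.0807% in BIT against β5t-KO mice). At p under 0.05 without adjustment edgeR gave 41 in β5i-KO against WT (all sequences 23%), 48 in β5t-KO against WT (all 43.6%), 52 in BIT against WT (all 23.1%) and 68 in BIT against β5t-KO mice (all 50.5%). DESeq2 called 40 (33 higher, all sequences 20.3%), 47 (17 higher, all 42.7%), 41 (40 higher, all 17.7%) and 70 (68 higher, all 50.9%) in the same order. The filter admits sequences through the genotype in which they recur, so these counts are not independent of the filter. What set their size was not tested.

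The V families whose share was most like that of TRAV6 over the 17 mice were TRAV9 (Pearson's r 0.84), TRAV13 (0.78) and TRAV10 (0.62), among 18 families with a mean share of at least 0.5%. TRAV9 had a mean share of 2.95% ± 0.759 in WT mice, against 3.84% ± 0.430 in β5t-KO and 3.85% ± 0.214 in BIT mice (SD). TRAV12, the family with the largest share, went the other way, with r -0.85 and 28.0% ± 3.61 in WT against 23.0% ± 0.920 in β5t-KO and 22.7% ± 0.518 in BIT mice (SD). The points share their libraries and the shares of a library sum to 100%, so these coefficients are given as a description.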

How the data were processed

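RNA of sorted CD8 T cells was made into TCRα and TCRβ libraries with a kit that tags molecules with unique identifiers. Clones were assembled by the authors with MiXCR, and its version, settings and clone filters are not given in the sources used here. For every clone the deposited tables give whole-number counts of reads and of unique molecules without normalisation. The deposited fraction of each was not used. The TCRβ tables were not used. WT mouse 5 was not analysed here, and BIT mouse 3 and β5t-KO mouse 5 were left out by the rule that defines the family.

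The family, the gene lists and the tests were chosen with earlier results of these data known. A clone was given the first V and J gene it lists. V genes and pairs entered with 5 or more clonotypes in 4 or more libraries. CDR3α sequences needed 10 CPM in at least 3 mice of a genotype, where CPM is reads per 1000000 in-frame reads. These counts were tested with edgeR 4.0.16 (quasi-likelihood, library size normalisation, threshold 0.05, all 4 genotypes in one fit) in R 4.3.3, with DESeq2 1.42.0 as an alternative. Values per mouse were compared by two-sided exact permutation (difference of means) in Python 3.11.15 with SciPy 1.17.1, NumPy 2.4.6 and pandas 2.3.3, and drawn with matplotlib 3.10.9. The tests were tried on simulated data, where edgeR recovered planted changes in V genes and pairs but not in single CDR3α sequences at the spread of these libraries. Genes named are the TRAV6 genes that could be tested, J genes called or used most in WT mice, and sequences with the highest mean CPM or found in most mice. Shared replicate numbers did not pair the mice. Libraries of a genotype shared at most 22.5% of the clones of the smaller one, and each was counted as its own sample.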

Additional observations from a re-analysis of the deposited data

Results flagged for a closer look

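In 34 measures of the 4 genotypes, 136 groups in all, 8 groups held a mouse that stood far from the others of its genotype. The cut-off would flag about 1 in 20 groups of normally distributed values, which levels of 0 CPM in most mice are not. The sequences were chosen for the highest mean CPM, which favours those high in a single mouse. β5t-KO mouse 2, whose library had 622 clonotypes, accounted for 6 of them. Its TRAV6-3 share of clonotypes was 0.965% (next mouse 0.217%), and its levels were 3443 CPM for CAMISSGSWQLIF, 3134 CPM for CAMSEDYSNNRLTL, 2925 CPM for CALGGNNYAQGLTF and 2867 CPM for the TRAJ22 join of 15 residues (0 CPM in the other β5t-KO mice for each), and 1613 CPM for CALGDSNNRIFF (next mouse 217 CPM). In WT mouse 3 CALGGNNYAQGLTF was at 45.1 CPM against 0 CPM in the other WT mice. β5i-KO mouse 4, the library with the fewest molecules, had a TRAV6D-7 share of 1.13% (next mouse 0.770%).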

How the results depend on the processing

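TRAV6 genes called changed from 0 to 1 (TRAV6-6) in β5t-KO against WT mice with DESeq2, TMM, thinned libraries and only the groups compared, and was 0 to 1 with each mouse of these genotypes left out (1 without β5t-KO mouse 3). In BIT against WT mice it was 1 with only the groups compared and with the replicate number as a block. Replicate numbers did not pair the mice: same-numbered mice had deviations that correlated between -0.289 and 0.36 (22 pairs, 6 over 0.1), and 3 of 17 mice correlated best with their own number. With the block, TRAV6-6 was at 0.675 (adjusted p 0.0337) and TRAV6 with TRAJ52 at 1.76 (adjusted p 0.122) in BIT against WT mice. Among clones with a single V gene, TRAV6-6 reversed to -0.31 in BIT against WT mice (adjusted p 0.827), a setting that drops 97.7% of its clones. TRAV6 pairs called in BIT against WT mice fell from 1 to 0 with DESeq2, TMM, no filter and the block, and were 0 to 1 with each mouse left out. CDR3α sequences of TRAV6 called rose from 0 to 40, 47, 41 and 70 with DESeq2 (β5i-KO, β5t-KO and BIT against WT, BIT against β5t-KO) and to 65 with TMM in the last. The difference in the family share, in percentage points, was 0.313 (β5t-KO against WT) and 0.713 (BIT against WT) among single-V clones, and 0.767 with BIT mouse 3 added (BIT against WT). BIT minus β5t-KO, -0.297 as reported, reversed to 0.0263 in molecules and 0.400 in single-V clones, and ran from -0.508 to 0.139 with each mouse left out (positive without β5t-KO mouse 4). Leaving out mice gave 0.509 to 1.01, 1.11 to 1.76 and 1.01 to 1.47 for β5i-KO, β5t-KO and BIT against WT. The alternatives for the family share were chosen after seeing the data. The 8 property differences reported kept their sign in 110 of 110 alternatives, and the 32 others changed sign in 54 of 448, with 0 past the threshold. The causes were not tested, beside the fewer clones of the single-V setting. Counting error is widest for β5t-KO mouse 2, with 28 TRAV6 clonotypes, and depth is lowest in β5i-KO mouse 4, where 58.7% of TRAV6 clonotypes rested on 1 molecule.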

Other observations

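In WT mice, fewer TRAV6 than other clonotypes rested on a single molecule, in 4 of 4 mice: 4.29%, 3.61%, 4.75% and 4.20% of TRAV6 clonotypes against 7.63%, 7.33%, 5.30% and 6.66% of others. In the 13 mice of the other genotypes, TRAV6 had the larger part in 12, for example 11.5% against 6.28% in BIT mouse 5 and 9.54% against 5.57% in β5t-KO mouse 3. This pattern was noticed after the values were seen and was not tested.

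Of the libraries left out, BIT mouse 3 held 11 TRAV6 clonotypes among 455 (2.42%), below every WT mouse analysed, and β5t-KO mouse 5 held 1 among 24.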
